A study of Mus musculus with 23 samples.

Results

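Regulated exocytosis releases stored hormone from secretory granules on demand, and 35 mouse genes of its machinery and of the granule membrane were followed here by symbol. Each of the 35 had an entry in both deposited tables, among 28096 genes in the table of sorted alpha cells and 22412 in the table of pancreatic tissue and tumors. By role they were 4 target SNAREs, 3 vesicle SNAREs, 1 SM protein, 7 synaptotagmins, 2 complexins, 3 priming factors, 5 Rab GTPases, 4 Rab effectors and 6 proteins of the granule or vesicle membrane.

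The study sequenced bulk RNA in 4 groups, from mice that were heterozygous or homozygous knockout for GCGR, the glucagon receptor. Alpha cells, the glucagon-secreting cells of the islet, were sorted by FACS in 3 libraries from heterozygous GCGR mice and 5 libraries from homozygous knockout GCGR mice. Both groups of alpha cells carry a tamoxifen label, and the protocol gives 200 mg/kg i.p. for 5 days with islets taken 14 to 21 days afterwards. Non-tumor pancreatic tissue (8 libraries) and dissected tumors (7 libraries) were both from homozygous knockout GCGR mice with treatment given as none, so that contrast sets tumor against non-tumor pancreas and not knockout against control. The labels give no age, strain, promoter behind the tamoxifen treatment or sorting marker. They also do not say which libraries came from separate animals, so the p-values below describe library-to-library spread, which may be partly technical.

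In endocrine cells and neurons, membrane fusion is driven by SNARE proteins, with VAMP on the vesicle pairing with syntaxin and SNAP-25 family proteins on the plasma membrane. SM proteins of the Munc18 family hold syntaxin, Munc13 and CAPS proteins prime docked vesicles, complexins bind the assembled SNARE complex, and synaptotagmins couple fusion to calcium. Rab3 and Rab27 proteins sit on the granule and bind effectors that dock it, while the phosphatase-like proteins IA-2 (Ptprn) and phogrin (Ptprn2) span the granule membrane. Exocrine acinar cells, which fill most of the pancreas, release zymogen granules with a partly different set that includes VAMP8, Rab3D and Rab27B.

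Cell type markers set the frame for reading these levels. The 9 alpha cell markers, led by Gcg and Ttr, made up 63.2% to 71.9% of all RPKM (reads scaled to transcript length and library size) in sorted alpha cells, 30.2% to 52.8% in tumors and 0.00712% to 0.0844% in non-tumor tissue. The 16 acinar markers, led by Cela2a and Cpa1, held 61.6% to 70.2% of the summed values in non-tumor tissue and 0.877% to 22.5% of it in tumors. In sorted cells they reached 0.719% in heterozygous library 2 and 0.135% in heterozygous library 3 and at most 0.013% in the other 6 libraries. Gcgr was listed at 0 in all 3 heterozygous and 4 of 5 knockout alpha cell libraries and at most at 0.135 RPKM in tissue, so its level gave no check of genotype. Because the libraries are bulk RNA, fewer cells of a type and less RNA per cell cannot be told apart in any level given here.

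RefSeq promoter windows of the mouse assembly GRCm38.p6 were matched by symbol for 25 of the 35 genes. The 250 bases before the transcript start are shown for Unc13a (chr8:71671758-71672007, minus strand), Stx1a (chr5:135023232-135023481, plus strand), Ptprn2 (chr12:116485470-116485719, plus strand) and Snap23 (chr2:120567421-120567670, plus strand), each ending at the base before the start of a transcript of that gene in the GENCODE annotation. Each of these genes, Snap23 included, was higher in every tumor than in any non-tumor library, as were 76.9% of all tested genes. Snap23 was the target SNARE closest to the median gene. Capitals mark GGGCGG (the GC box) and TGACG (the short CRE motif) on either strand, and the letters run 5′ to 3′ on the strand of the gene.
Unc13a: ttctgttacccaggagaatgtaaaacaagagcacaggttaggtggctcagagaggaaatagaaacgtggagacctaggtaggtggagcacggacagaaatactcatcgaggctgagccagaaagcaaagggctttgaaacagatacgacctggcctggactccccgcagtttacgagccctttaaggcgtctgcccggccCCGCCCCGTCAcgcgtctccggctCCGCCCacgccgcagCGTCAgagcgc
Stx1a: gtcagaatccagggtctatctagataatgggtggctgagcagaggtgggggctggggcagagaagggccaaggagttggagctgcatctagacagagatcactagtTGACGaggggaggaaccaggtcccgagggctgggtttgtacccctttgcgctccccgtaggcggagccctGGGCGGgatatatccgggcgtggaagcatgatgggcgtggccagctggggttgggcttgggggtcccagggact
Ptprn2: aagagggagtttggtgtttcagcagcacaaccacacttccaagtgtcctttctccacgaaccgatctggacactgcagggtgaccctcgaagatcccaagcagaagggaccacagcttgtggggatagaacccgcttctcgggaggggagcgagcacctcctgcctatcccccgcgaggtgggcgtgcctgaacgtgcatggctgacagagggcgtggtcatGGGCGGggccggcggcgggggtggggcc
Snap23: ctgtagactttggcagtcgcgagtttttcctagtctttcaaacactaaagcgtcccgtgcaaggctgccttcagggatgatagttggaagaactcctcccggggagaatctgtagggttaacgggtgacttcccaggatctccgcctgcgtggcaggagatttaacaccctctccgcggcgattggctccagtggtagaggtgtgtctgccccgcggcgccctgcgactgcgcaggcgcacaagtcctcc
The Unc13a window held 2 GC boxes and 2 short CRE motifs, 1 box standing directly beside 1 of the motifs without sharing a base, the Stx1a window held 1 of each, the Ptprn2 window held 1 GC box, and the Snap23 window held neither. GGGCGG stood in at least 1 window of 18 of the 25 matched genes and in 32.74% of all 32851 promoter windows of the same length. TGACG stood in 9 of 25 and in 17.77% of all windows. Of the left and right parts of RE1, the element read by the neuronal repressor REST, CAGCACC stood in 1 of 25 (5.73% of all windows) and GGACAG in 7 of 25 (18.67%), all searched on both strands. TATAAA stood in 1 of 25, Rab3b, against 12.37% of all windows. Some of these genes have more than 1 window, 29 in all, and the windows of these genes were richer in G and C, with a median of 58.8% against 52.4% for all windows.

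More of the 35 genes passed a low threshold in sorted alpha cells and in tumors than in non-tumor tissue. A mean of at least 1 RPKM was reached by 30 of the 35 genes in heterozygous alpha cells, 30 in knockout alpha cells, 32 in tumors and 17 in non-tumor tissue. The share of all genes that reached this mean was not compared between the groups. Of all genes tested between tumors and non-tumor tissue, 90.7% were called higher in tumors on the deposited values. The lower non-tumor count is therefore not read as particular to these genes. Snap25, the SNARE of neurons and endocrine cells, led both groups of alpha cells, at 77.8 ± 18.7 RPKM (SD, n = 3) in heterozygous and 74.1 ± 16.1 RPKM (SD, n = 5) in knockout cells. Ptprn2 came second in both groups, at 70.04 ± 24.6 and 65.9 ± 16.5 RPKM. Syt13 and Ptprn followed in heterozygous cells, and Ptprn and Vamp2 in knockout cells. Ptprn led the tumors at 232 ± 69.8 RPKM (SD, n = 7), ahead of Ptprn2 at 135 ± 29.5, Syt13 at 102 ± 20.6 and Cplx2 at 43.6 ± 11.01 RPKM. In non-tumor tissue the order opened with Vamp8 at 21.8 ± 1.74 RPKM (SD, n = 8), Rab3d at 14.5 ± 3.06, Ptprn2 at 12.00 ± 2.11 and Stxbp2 at 8.48 ± 1.58 RPKM. Several neighbours in these orders overlapped by their SD: Snap25 with Ptprn2 in both groups of alpha cells, Ptprn2 with Syt13 in heterozygous cells and with Ptprn in knockout cells, Ptprn2 with Syt13 in tumors, and Ptprn2 with both Rab3d and Stxbp2 in non-tumor tissue. The tumor SD ranges of Ptprn and Ptprn2 also met, although Ptprn stood above Ptprn2 in 7 of 7 tumors. The tables were normalised separately, so levels in alpha cells and in tissue were placed side by side with no test between them.

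**Figure D1:**
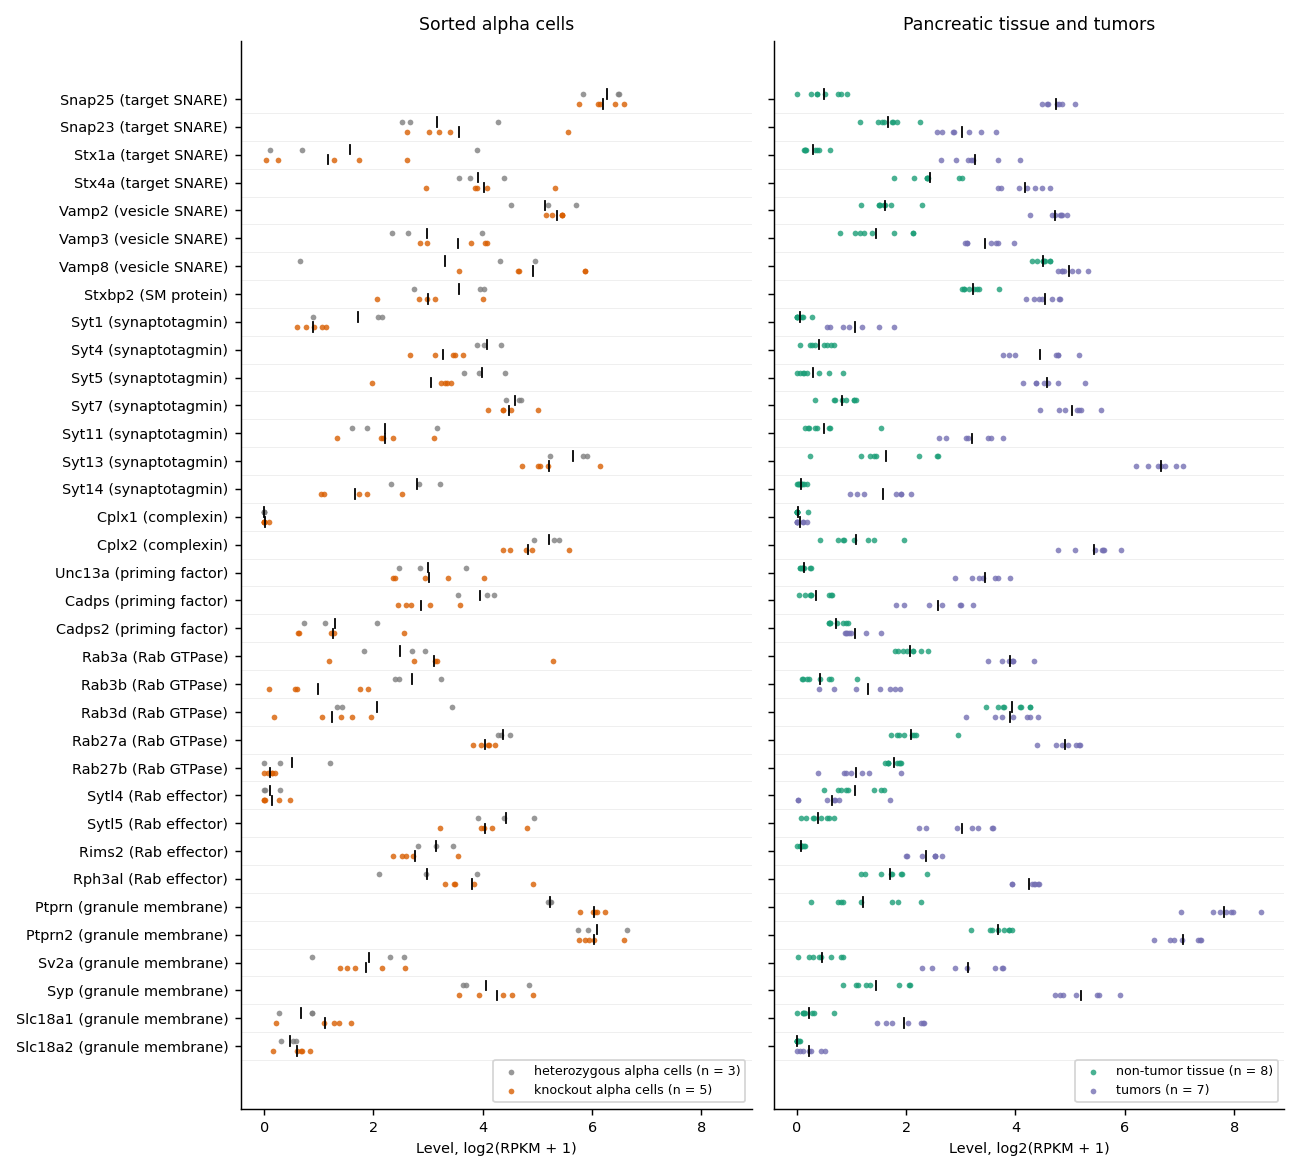
Level of each of the 35 genes in every library, as log2(RPKM + 1), for sorted alpha cells (left) and for tissue and tumors (right). Points are libraries, short black lines are group means, and each gene is followed by its role. Snap25 is highest in alpha cells, Ptprn in tumors and Vamp8 in non-tumor tissue, and Cplx1 lies at or near 0 in all 4 groups.

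Ranks within a library need no common scale. Among 19126 genes listed in both tables, Ptprn had a median rank of 278 in heterozygous cells, 100 in knockout cells, 81 in tumors and 5850 in non-tumor tissue. Ptprn2 stayed between rank 90 and rank 130 in alpha cells and tumors and stood at 548 in non-tumor tissue. Snap25 ranked 94 and 88 in the alpha cell groups but 1050 in tumors, and Vamp2 likewise ranked 299 and 225 against 970. Sytl5, a Rab27 effector, ranked 620 and 801 in alpha cells and 4231 in tumors. The acinar-type members showed the opposite order, with Rab3d at rank 472 in non-tumor tissue, 2283 in tumors and 6242 and 6620 in alpha cells. Vamp8 was high in every group by this measure, with median ranks of 305 in non-tumor tissue, 418 in knockout cells, 848 in heterozygous cells and 856 in tumors.

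The comparison of tumors with non-tumor pancreas asks how the secretory machinery of the tumor differs from that of the organ it grew in. Ptprn2, Rab27a, Syp, Syt13 and Vamp2 rose by 1.28 to 3.50 log2 units relative to the median gene, and Rab3d, Rab27b and Vamp8 were lower on that scale. Ptprn, Cplx2, Syt7 and Syt11 had values of 5.06, 2.82, 2.66 and 1.16 on it. They entered the test only with the help of tumors, which favored a rise. Limma was run on log2(RPKM + 1), two-sided with Benjamini-Hochberg adjustment over 10220 tested genes and a threshold of 0.05. On the deposited scale 90.7% of all tested genes were called higher and 3.68% lower, and the median of all genes was 1.46 log2 units higher in tumors. Fold changes were therefore also taken relative to the median gene, by setting each library to the same median over the tested genes, where 28.6% of all genes were called higher and 36.7% lower with a median of -0.08.

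Of the 28 tested members, 10 were below 1 RPKM in every non-tumor library (Snap25, Stx1a, Syt4, Syt5, Sytl5, Rims2, Unc13a, Cadps, Sv2a and Slc18a1). They entered the test through the tumors alone, which on the deposited scale fixes their direction, since 1472 of 1472 such genes were called higher. Relative to the median gene 35.5% of the 1472 were called higher and 29.3% lower. For these 10 genes levels and fold changes are described below with no test, and nothing is read from the p-values of ratios that hold them.

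The other 18 members reached 1 RPKM in at least 1 non-tumor library. Among them Ptprn and Cplx2 reached it in 4 non-tumor libraries, Syt7 in 3 and Syt11 in 1. These genes passed the filter of 7 libraries only with the help of tumors, which favored a rise. No limma p-value is given for them in this comparison. Relative to the median gene 12 of these 18 were called higher, 3 lower and 3 neither way, beside 27.5% higher and 37.9% lower among the 8748 genes that met the same condition. Their median change was 1.08, against -0.10 for the 8748 genes. The 12 include Ptprn, Cplx2, Syt7 and Syt11, so this count and median lean toward a rise. How many of the 8748 genes had the same help was not counted, so nothing is read from the difference. Vamp3 and Rab3a, also among the 12, lost their calls with smaller pseudocounts. On the deposited scale the 18 members were 16 higher and 1 lower, near the 89.2% and 4.3% of the 8748 genes, with medians of 2.62 and 1.44. The groups did not overlap for 16 of the 18, all higher in tumors, where the same held for 73.1% of the 8748 genes in that direction and 1.9% in the other. With the other 10 included, 26 of 28 were higher and 1 lower on the deposited scale, 21 and 3 were so relative to the median gene, and 26 did not overlap (76.9% of all tested genes higher and 1.62% lower), and nothing is read from these totals. The 7 untested members, Syt1, Syt14, Sytl4, Rab3b, Cadps2, Cplx1 and Slc18a2, are given below by their reads.

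**Figure D2:**
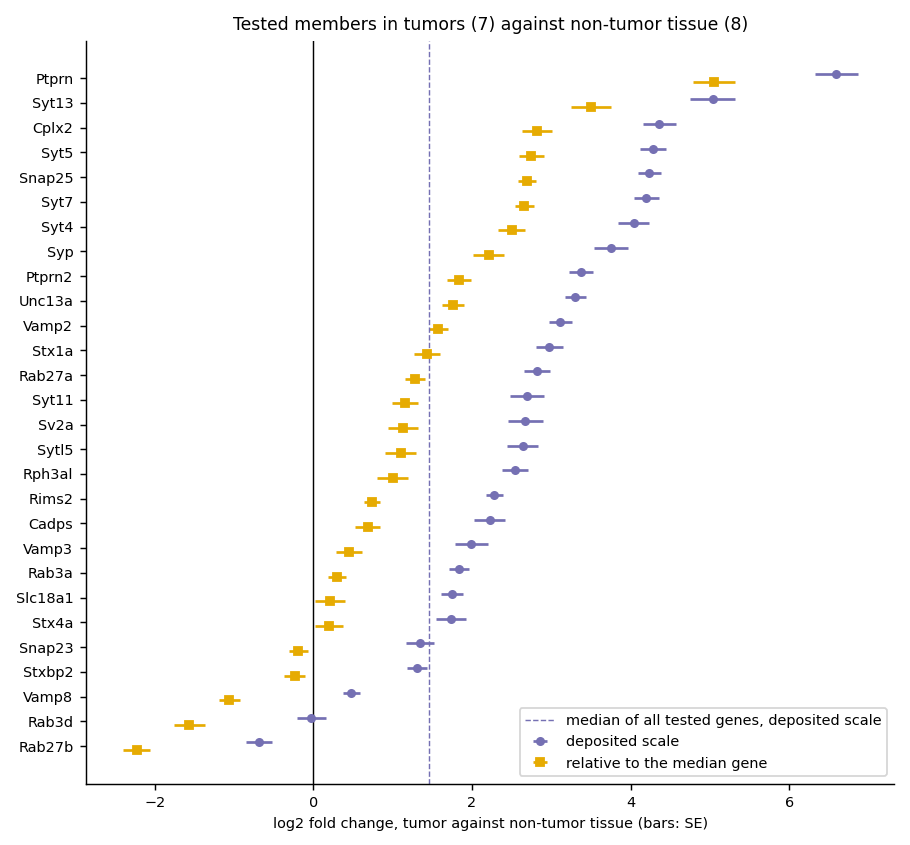
Log2 fold change of the 28 tested genes in 7 tumors against 8 non-tumor libraries, with bars of 1 standard error, on the deposited scale (circles) and relative to the median gene (squares). The dashed line is the median of all tested genes on the deposited scale, 1.46. Ptprn lies farthest to the right on both scales, and Rab27b, Rab3d and Vamp8 lie farthest to the left.

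Among the target SNAREs, Snap25 ranged from 0 to 0.886 RPKM (median 0.366) in non-tumor tissue and from 21.5 to 33.1 RPKM (median 26.1) in tumors. Every tumor lay above every non-tumor library, and the log2 fold change was 4.24 ± 0.14 (SE), or 2.70 ± 0.11 relative to the median gene. Stx1a, the syntaxin that pairs with Snap25 at the plasma membrane, ran from 0.0979 to 0.529 RPKM (median 0.190) in non-tumor tissue and from 5.25 to 15.98 RPKM (median 8.06) in tumors, with fold changes of 2.98 ± 0.17 and 1.44 ± 0.16. The widely expressed relatives of both had smaller fold changes. Snap23 rose from 2.25 to 7.37 RPKM on the deposited scale (1.35 ± 0.17), and its value relative to the median gene was -0.19 ± 0.12 (adjusted p = 0.175) and the deposited rise turned to -0.22 under quantile normalisation. Stx4a went from 4.58 to 17.4 RPKM, a fold change of 1.74 ± 0.19 and, relative to the median gene, 0.20 ± 0.17 (adjusted p = 0.33).

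The vesicle SNAREs separated by type. Vamp2, the synaptobrevin of synaptic vesicles and endocrine granules, ran from 1.26 to 3.86 RPKM (median 1.94) in non-tumor tissue and from 18.3 to 29.7 RPKM (median 27.1) in tumors, with no overlap and a fold change of 3.11 ± 0.14, or 1.57 ± 0.12 relative to the median gene (adjusted p = 5.73e-09). Vamp8, the SNARE of zymogen granules, was already 18.7 to 23.8 RPKM (median 21.9) in non-tumor tissue and 26.5 to 39.3 RPKM (median 28.6) in tumors. Its deposited fold change was 0.48 ± 0.10, called higher, whereas relative to the median gene it was -1.06 ± 0.13 and under quantile normalisation -1.11, both called lower. Vamp3, cellubrevin of recycling endosomes, had a mean of 1.89 RPKM in non-tumor tissue and 10.2 in tumors, with fold changes of 1.99 ± 0.21 and 0.45 ± 0.16 (adjusted p = 0.0216 relative to the median gene). Stxbp2, the Munc18 protein of epithelial and blood cells, went from 8.48 to 22.4 RPKM, a deposited change of 1.30 ± 0.12, and was not called relative to the median gene (-0.23 ± 0.13, adjusted p = 0.121). Quantile normalisation gave -0.32 for Stxbp2, called lower.

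Of the 7 synaptotagmins, Syt7, Syt11 and Syt13 reached 1 RPKM in a non-tumor library and were called higher in tumors on both scales, where 89.2% and 27.5% of the genes that met the same condition were. Syt7 and Syt11 passed the filter only with the help of tumors. Syt4 and Syt5 are given without a test, and Syt1 and Syt14 were not tested. Syt13, an isoform without the residues that bind calcium, ran from 0.182 to 4.98 RPKM (median 1.70) in non-tumor tissue and from 72.9 to 133 RPKM (median 99.7) in tumors, a fold change of 5.04 ± 0.28 and of 3.50 ± 0.25 relative to the median gene. The calcium sensor Syt7 rose from a mean of 0.796 to 32.4 RPKM, a fold change of 2.66 ± 0.12 relative to the median gene. Syt5, also a calcium sensor, had means of 0.249 and 23.6 RPKM and a fold change of 2.75 ± 0.16 on that scale. Syt4, whose first C2 domain does not bind calcium in the usual way, ran from 0.0365 to 0.598 RPKM (median 0.334) in non-tumor tissue and from 12.7 to 34.97 RPKM (median 25.6) in tumors. Tumors 4 to 7 held Syt4 at 25.6 to 34.97 RPKM and tumors 1 to 3 at 12.7 to 14.9 RPKM. Its relative Syt11 went from 0.492 to 8.53 RPKM, a change of 1.16 ± 0.16 relative to the median gene. Cplx2, the complexin of these cells, ran from 0.345 to 2.90 RPKM (median 0.939) in non-tumor tissue and from 26.4 to 60.1 RPKM (median 46.99) in tumors, with 4.36 ± 0.21 on the deposited scale and 2.82 ± 0.19 relative to the median gene.

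The priming factors Unc13a (Munc13-1) and Cadps (CAPS1) were low in every non-tumor library and entered the test through the tumors alone. Unc13a was at most 0.203 RPKM in non-tumor tissue and 6.43 to 13.9 RPKM (median 9.61) in tumors, with changes of 3.30 ± 0.13 and 1.76 ± 0.14. Cadps was at most 0.564 RPKM in non-tumor tissue and 2.50 to 8.29 RPKM (median 5.29) in tumors, with changes of 2.22 ± 0.19 and 0.68 ± 0.16. Rph3al (Noc2), a Rab effector that binds Rab3 and Rab27 in islets and exocrine glands, rose by 1.00 log2 units relative to the median gene, and the effectors Rims2 and Sytl5 had values of 0.74 and 1.10 with no test. Rph3al had a mean of 2.36 RPKM in non-tumor tissue against 0.0599 for Rims2 and 0.323 for Sytl5.

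The Rab GTPases did not move as 1 family. Rab27a, the Rab27 of endocrine granules, ran from 2.29 to 6.69 RPKM (median 3.09) in non-tumor tissue and from 20.1 to 35.3 RPKM (median 30.00) in tumors, with changes of 2.82 ± 0.17 and, relative to the median gene, 1.28 ± 0.13. Rab27b ran the other way, from 2.07 to 2.76 RPKM (median 2.39) in non-tumor tissue and from 0.301 to 2.73 RPKM (median 0.981) in tumors, and it was the only tested member called lower on the deposited scale (-0.69 ± 0.16, adjusted p = 0.000606) and the lowest relative to the median gene (-2.23). Tumor 7, with 2.73 RPKM, lay inside the non-tumor range and was also the tumor with the most acinar signal. Rab3a, the Rab of synaptic vesicles and endocrine granules, went from 3.22 to 14.1 RPKM, 1.83 ± 0.13 on the deposited scale. Relative to the median gene its change of 0.29 ± 0.12 (adjusted p = 0.0336) was the smallest that was called higher, and the call was lost without non-tumor library 2, 4, 5, 6 or 8 or without tumor 2, 3, 4 or 6, with values of 0.26 to 0.29. Rab3d, found on zymogen granules, was 9.95 to 18.2 RPKM (median 14.5) in non-tumor tissue and 7.51 to 20.4 RPKM (median 14.5) in tumors, which overlap (-0.03 ± 0.18, adjusted p = 0.892). Relative to the median gene Rab3d was lower by -1.57 ± 0.20 (adjusted p = 2.67e-06).

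Membrane proteins of the granule held the largest change among the 28 tested members. Ptprn (IA-2), an autoantigen in type 1 diabetes, ran from 0.190 to 3.80 RPKM (median 1.03) in non-tumor tissue and from 129 to 359.7 RPKM (median 229.5) in tumors. The log2 fold change was 6.60 ± 0.27, or 5.06 ± 0.26 relative to the median gene. Ptprn2 (phogrin) had a far higher base in non-tumor tissue, at 8.06 to 14.4 RPKM (median 12.3), and reached 91.1 to 166 RPKM (median 131) in tumors, with changes of 3.38 ± 0.15 and 1.84 ± 0.15. Syp, synaptophysin, the pathologist's marker of neuroendocrine tumors, ran from 0.789 to 3.21 RPKM (median 1.45) in non-tumor tissue and from 25.3 to 58.9 RPKM (median 33.3) in tumors, 2.21 ± 0.19 relative to the median gene. Sv2a, a glycoprotein of synaptic vesicles and granules, was at most 0.793 RPKM in non-tumor tissue and 3.88 to 12.7 RPKM (median 7.60) in tumors, 1.13 ± 0.19 relative to the median gene. Slc18a1, the vesicular monoamine transporter VMAT1, was at most 0.596 RPKM in non-tumor tissue and 1.76 to 4.02 RPKM (median 3.10) in tumors. Its change was 1.75 ± 0.14 on the deposited scale and 0.21 ± 0.19 relative to the median gene, the latter 1.67 and 2.58 with smaller pseudocounts of 0.1 and 0.01. The same pseudocounts ended the calls of Vamp3 (adjusted p = 0.0652 and 0.0746, limma) and Rab3a (adjusted p = 0.53 and 0.669, limma) relative to the median gene, and Stxbp2 was then called lower, at -0.59 and -0.65.

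Low members are better read as reads. RPKM values of all 35 genes in the tissue table were whole multiples of the worth of 1 read within 0.1 read (a multiplier shared by every library of a gene would go unseen), and the members together held 1370 to 2067 reads in non-tumor libraries and 37470 to 69956 in tumors. Syt1, the fast calcium sensor of synapses, had 0 to 4 reads in non-tumor libraries and 18 to 111 in tumors. Syt14 had 0 to 7 reads against 82 to 281, and Cadps2 (CAPS2) 25 to 77 against 101 to 284. In RPKM, which allows for depth, every tumor lay above every non-tumor library for Syt1 and Syt14, while Cadps2 overlapped, at 0.495 to 0.901 RPKM in non-tumor tissue and 0.849 to 1.91 RPKM in tumors. On this deposited scale every tumor lay above every non-tumor library for 76.9% of all tested genes. The same held for 1472 of 1472 tested genes below 1 RPKM in every non-tumor library, so nothing is read from it for Syt1 and Syt14. Rab3b had 1 to 12 reads in non-tumor libraries and 7 to 58 in tumors, which overlap. Sytl4 (granuphilin), which docks insulin granules, had 18 to 64 reads in non-tumor libraries and 1 to 171 in tumors. Slc18a2 (VMAT2) had 0 to 1 against 0 to 20 reads, and Cplx1 had 0 to 1 against 0 to 2, so a difference for Cplx1 was not detectable at this depth. These ranges run over libraries, so they hold differences between libraries, depth among them, as well as the counting of reads.

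The 7 tumors differed from each other to an extent that depended on the gene. Over the 32 members with a tumor mean of at least 1 RPKM, the highest tumor was a median of 2.26 times the lowest, against 1.89 times over the 11142 genes that reached the same mean. Of the 32, 11 (34.4%) stayed within 2-fold, against 55.5% of those genes. Among the 32, Rph3al, Vamp8, Snap25, Stxbp2 and Vamp2 varied least, from 1.43-fold for Rph3al to 1.62-fold for Vamp2. Rab27b (9.09-fold), Rab3b (8.24-fold) and Syt1 (5.14-fold) varied most. Ptprn varied 2.79-fold, from 129 RPKM in tumor 7 to 359.7 RPKM in tumor 6. Tumor 2 was the lowest for 13 of the 32 members and tumor 7 for 9, while tumor 4 was the highest for 8 and tumor 5 for 7.

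Markers of other cell types moved with some of these differences. Acinar markers took 9.20%, 1.20%, 6.28%, 6.34%, 0.877%, 9.62% and 22.5% of all values in tumors 1 to 7. In the same order Rab27b was 0.981, 0.301, 0.823, 1.30, 0.876, 1.49 and 2.73 RPKM and Rab3d was 12.5, 7.51, 11.4, 17.4, 14.5, 18.2 and 20.4 RPKM, so that tumor 7 was highest and tumor 2 lowest for both, although tumor 5 had the least acinar signal. None of the 16 acinar markers was at 0 in any tissue library. Without tumor 7, 21 of 29 tested members were higher and 5 lower relative to the median gene, beside 28.5% and 36.1% of all tested genes, Snap23 then being called lower at -0.28. The 9 beta cell markers, led by Ins1 and Ins2, summed to 7640 RPKM in tumor 4 and to 69.5 to 1580 RPKM in the other 6 tumors, with 0 of the 9 at 0 in tumor 4 and up to 3 at 0 in the others. Sytl4 was 2.26 RPKM in tumor 4 and 0.0153 to 0.699 RPKM in the others. In non-tumor libraries 1 to 8 the beta cell markers summed to 287, 6062, 5948, 1097, 2924, 1535, 10532 and 1733 RPKM. Ptprn in the same libraries was 0.190, 2.36, 2.58, 0.689, 1.26, 0.749, 3.80 and 0.793 RPKM, and Sytl4 was 0.404, 2.02, 1.67, 0.872, 0.684, 0.744, 1.92 and 0.919 RPKM, so that libraries 2, 3 and 7 were the 3 highest in all 3 measures and library 1 the lowest. The alpha cell markers had the same highest and lowest libraries, at 524, 292 and 376 RPKM in libraries 2, 3 and 7 and 51.1 in library 1. So did the markers of delta cells (led by Sst) and PP cells (Ppy and Pyy), so this order is not particular to beta cells. The 9 nerve and glia markers summed to 17.9 to 42.2 RPKM in tumors and 0.309 to 1.31 RPKM in non-tumor tissue, with up to 4 and up to 5 of the 9 at 0. The part of these cells in the members' levels was not tested.

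A ratio of related genes within a library cancels the scaling of that library where both genes stand well above the pseudocount of 1 RPKM. It was used to see which gene of a pair prevailed. In 9 of 9 pairs the ratio differed between tumors and non-tumor tissue by an exact permutation test over the 15 libraries, two-sided and adjusted over the 18 tests of both comparisons. Other gene pairs were not tested, so no share stands beside this count. Snap25, Stx1a, Cadps and Slc18a1 were below 1 RPKM in every non-tumor library. Nothing is read from the p-values of their pairs or from the count of 9. The count was 9 of 9 with a pseudocount of 0.1 as well. For 8 pairs no tumor overlapped a non-tumor library and p = 0.000311, the smallest this design allows (Benjamini-Hochberg adjusted 0.000699, exact permutation test), and for Stx1a over Stx4a the exact p was 0.000932 (adjusted 0.001865). Log2 Snap25 over Snap23 went from -1.17 ± 0.29 (SD, n = 8) in non-tumor tissue to 1.72 ± 0.42 (SD, n = 7) in tumors. Snap23 was thus the higher of the pair in bulk non-tumor tissue and Snap25 in bulk tumors. Whether any cell type changed its SNARE was not tested. Vamp2 over Vamp8 went from -2.89 ± 0.34 to -0.25 ± 0.35, and Vamp8 remained the higher of the pair on average. Rab3a over Rab3d went from -1.86 ± 0.42 to 0.00 ± 0.53, and Rab27a over Rab27b from 0.32 ± 0.45 to 3.83 ± 0.45. Ptprn over Ptprn2 went from -2.47 ± 0.82 to 0.75 ± 0.47, positive in 7 of 7 tumors and negative in 8 of 8 non-tumor libraries. Cadps over Cadps2 rose by 1.88, and Cplx2 over Cplx1 by 4.33, the latter following the level of Cplx2 alone, because Cplx1 was near 0 in both groups. Snap25, Stx1a, Cadps, Cadps2, Slc18a1, Rab27b and Ptprn were also near or below 1 RPKM in at least 1 of the groups. The size of their ratios therefore depends in part on the pseudocount and is not free of library scaling. The ratio of Slc18a2 to Slc18a1 was the 1 ratio that fell, from -0.21 ± 0.22 to -1.74 ± 0.51, with Slc18a2 near 0 in both groups. Stx1a over Stx4a rose from -2.14 ± 0.38 to -0.90 ± 0.57.

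**Figure D3:**
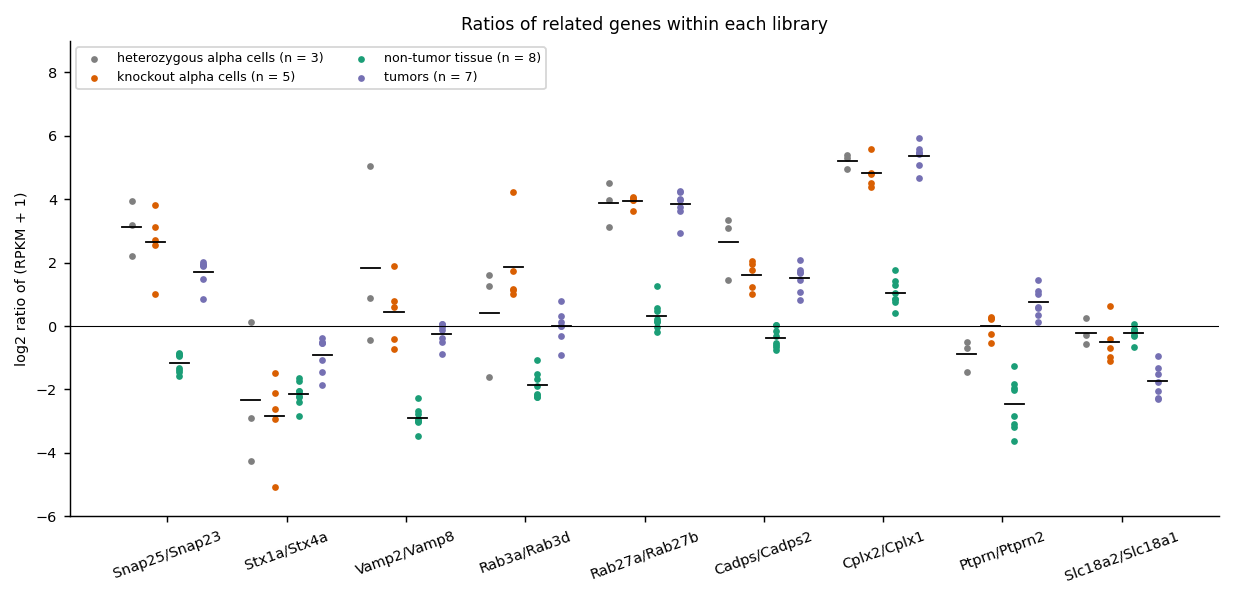
Log2 ratio of 9 pairs of related genes, each computed from RPKM + 1 within a library, in the 4 groups. Points are libraries and black lines are group means, and a ratio of 0 means equal levels. Snap25/Snap23 and Ptprn/Ptprn2 lie below 0 in all 8 non-tumor libraries and above 0 in all 7 tumors, and heterozygous libraries scatter most for Vamp2/Vamp8 and Stx1a/Stx4a.

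Set beside the sorted cells, the tumors' ratios were on the alpha cell side for several pairs but not for all, with no test made across the tables. Rab27a over Rab27b was 3.87 ± 0.70 in heterozygous and 3.93 ± 0.18 in knockout alpha cells, and 3.83 ± 0.45 in tumors. Cplx2 over Cplx1 was 5.21 ± 0.23, 4.81 ± 0.47 and 5.38 ± 0.40 in the same order. Snap25 over Snap23 was 3.11 ± 0.88 and 2.64 ± 1.03 in alpha cells and 1.72 ± 0.42 in tumors. Ptprn over Ptprn2 ran in the order of heterozygous cells (-0.88 ± 0.50), knockout cells (0.00 ± 0.37) and tumors (0.75 ± 0.47). Stx1a over Stx4a went the other way, at -2.34 ± 2.25 in heterozygous and -2.84 ± 1.37 in knockout cells. It was -2.14 in non-tumor tissue and -0.90 in tumors. So did Slc18a2 over Slc18a1, at -0.21 ± 0.42 and -0.52 ± 0.69 in alpha cells, -0.21 in non-tumor tissue and -1.74 in tumors. Rab27b and Cplx1 were at most 1.315 and 0.061 RPKM in alpha cells, so their pairs rest mainly on Rab27a and Cplx2.

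The comparison of knockout with heterozygous alpha cells asks whether loss of the receptor changes the release machinery before tumors are sampled. No member passed the test. The 2 members with the smallest unadjusted p were Rab3b, lower in knockout cells, and Ptprn, higher in them, both without overlap between the groups. Limma called 0 of 31 tested members, where it called 0.159% of 10718 tested genes higher and 0.103% lower. At an unadjusted p under 0.05 there were 6 members, where 10.6% of all tested genes lay (5.65% higher and 4.91% lower), 1 member being higher and 5 lower, and none of the 10 alternative settings or 8 fits without 1 library gave a call. The median change of the tested members was -0.06, and that of all genes was 0.00. Sytl4, Rab27b, Cplx1 and Slc18a2 were too low to test.

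Ptprn was 35.5, 36.8 and 36.7 RPKM in the 3 heterozygous libraries and 53.7, 65.6, 63.4, 67.3 and 74.01 RPKM in the 5 knockout libraries. All knockout libraries lay above all heterozygous ones, with means of 36.3 ± 0.722 and 64.8 ± 7.36 RPKM (SD). The log2 fold change was 0.81 ± 0.26 (SE) with a limma adjusted p of 0.288. It was the only member whose groups did not overlap on the higher side, as 3.85% of all tested genes did. Ptprn2 was 98.2, 52.5 and 59.4 RPKM in heterozygous and 64.2, 94.5, 53.1, 57.3 and 60.4 RPKM in knockout libraries, which overlap (-0.06 ± 0.30, adjusted p = 0.962, limma). The ratio of Ptprn to Ptprn2 was 0.87 log2 units higher in knockout cells (exact permutation p = 0.0714, adjusted 0.129). With 3 against 5 libraries the smallest exact p is 0.0357, and no alpha cell ratio reached it, nor would it pass the adjustment. The other 8 ratios had adjusted p-values of 0.234 to 0.75 by the same exact permutation test.

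On the lower side 4 members did not overlap, as 3.6% of all tested genes did: Syt4, Syt5, Rab3b and Rab27a. Syt4 was 15.1, 19.1 and 13.9 RPKM in heterozygous and 7.77, 11.5, 10.2, 10.03 and 5.36 RPKM in knockout libraries (-0.80 ± 0.37, adjusted p = 0.466, limma). Syt5 was 20.1, 11.6 and 14.2 RPKM against 2.95, 9.10, 8.41, 9.70 and 8.85 RPKM (-0.94 ± 0.43, adjusted p = 0.464, limma), and knockout library 1 stood far below the other 4. Rab3b was 8.43, 4.26 and 4.56 RPKM against 2.35, 0.058, 0.486, 0.526 and 2.72 RPKM, the largest difference of a member (-1.72 ± 0.54, adjusted p = 0.283, limma). Rab27a was 21.7, 19.1 and 18.3 RPKM against 17.6, 13.1, 16.3, 14.6 and 16.2 RPKM, a narrow gap (-0.33 ± 0.31, adjusted p = 0.735, limma). Cadps at -1.08 (adjusted p = 0.361) and Syt14 at -1.14 (adjusted p = 0.452) completed the 6 members with an unadjusted limma p under 0.05, and both overlapped between groups.

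Among the synaptotagmins the fold changes of all 7 tested genes ran from -1.14 for Syt14 to 0.00 for Syt11, and among the vesicle SNAREs from 0.22 for Vamp2 to 1.62 for Vamp8. Neither range holds a called gene. Vamp8 rested on uneven libraries, with 0.571, 18.9 and 30.1 RPKM in heterozygous and 10.9, 57.8, 23.98, 24.4 and 57.2 RPKM in knockout cells. Stx1a was as uneven, at 13.9, 0.082 and 0.607 RPKM and 0.018, 0.185, 5.08, 2.32 and 1.42 RPKM, with heterozygous library 1 above every knockout library. The level of Snap25 differed little between the groups, at 88.9, 88.2 and 56.2 RPKM and 84.5, 95.1, 53.2, 69.7 and 68.2 RPKM (-0.06 ± 0.29, limma). Syp was 27.7, 11.4 and 11.9 RPKM and 22.3, 10.9, 29.1, 19.8 and 14.2 RPKM (0.21 ± 0.41). Knockout library 2 was the highest knockout library for 18 of the 30 members with a mean of at least 1 RPKM, and knockout library 1 the lowest for 14. In knockout library 2 the values summed to 658255 RPKM over all genes, the highest sum of the 8, and heterozygous libraries 1 and 2 and knockout libraries 1 and 2 listed 13124 to 13882 genes above 0 against 16123 to 16579 in the other 4. Whether these differences between libraries enter the members' levels was not tested beyond further fits, which gave 0 calls. These left out each library, or held a term that split the libraries into those with more and those with fewer genes above 0.

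**Figure D4:**
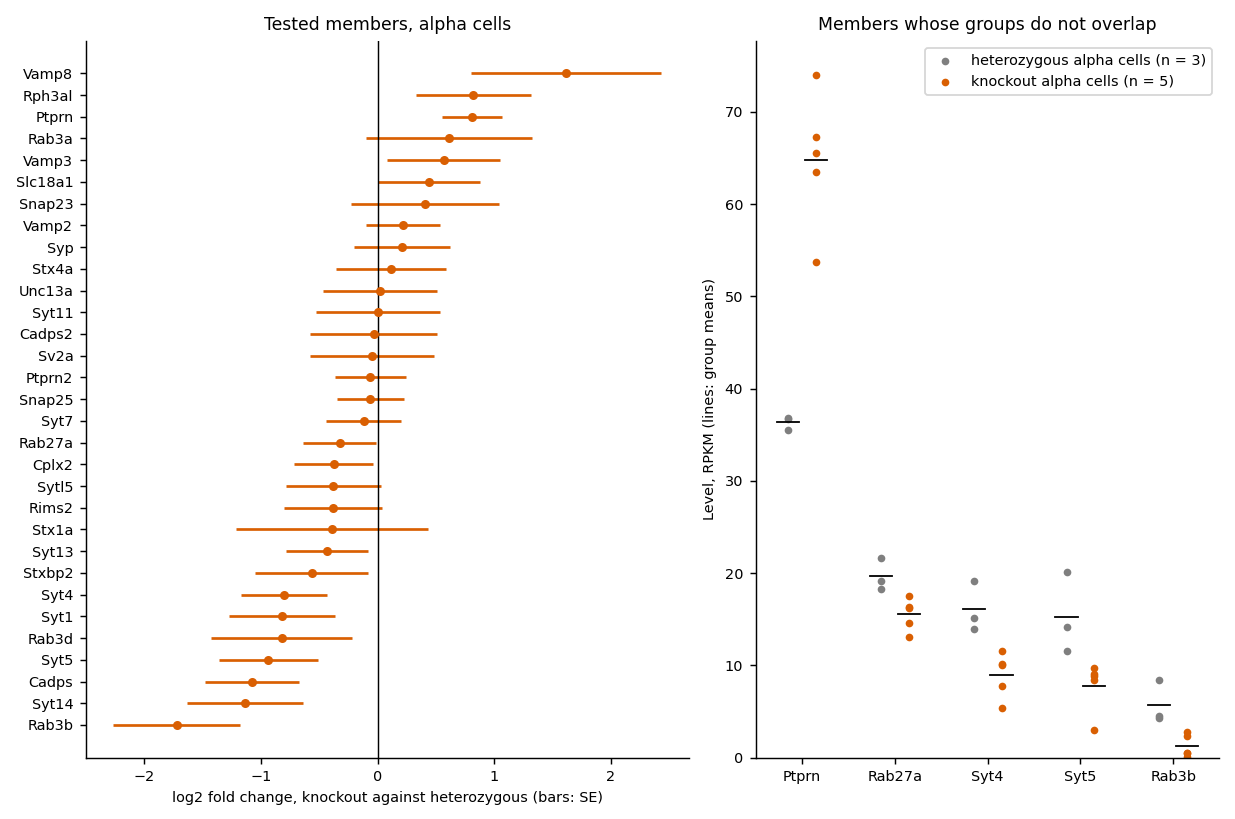
Left, log2 fold change of the 31 tested genes in 5 knockout against 3 heterozygous alpha cell libraries, with bars of 1 standard error. Right, level in RPKM of the 5 genes whose groups do not overlap, with points for libraries and lines for group means. No gene passed the adjusted threshold, and Ptprn is the 1 gene of the right panel that is higher in knockout cells, at 53.7 to 74.0 RPKM against 35.5 to 36.8.

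The make-up of the machinery, as shares of the summed RPKM of the 35 genes, also differed between groups. The members took 0.112% to 0.145% of all values in heterozygous cells, 0.081% to 0.122% in knockout cells, 0.151% to 0.242% in tumors and, lowest, 0.012% to 0.018% in non-tumor tissue. Granule membrane genes held a median of 22.7% of the members' sum in heterozygous cells, 30.2% in knockout cells, 44.6% in tumors and 17.6% in non-tumor tissue. Ptprn alone held 6.92%, 12.9%, 24.0% and 1.27% in that order. Target SNAREs held 20.8% and 18.8% in the alpha cell groups and 6.93% in tumors, of which Snap25 was 13.8%, 13.1% and 2.90%. Synaptotagmins held 20.2%, 15.6%, 21.6% and 3.74% in heterozygous cells, knockout cells, tumors and non-tumor tissue, and no knockout library, at 13.7% to 15.8%, reached the heterozygous range of 19.9% to 23.5%. Rab GTPases held 26.2% in non-tumor tissue and 5.48% to 6.56% in the other 3 groups, and vesicle SNAREs 28.0% against 7.32% to 15.1%. Shares within a library sum to 100%, so a high share of 1 gene lowers the others.

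**Figure D5:**
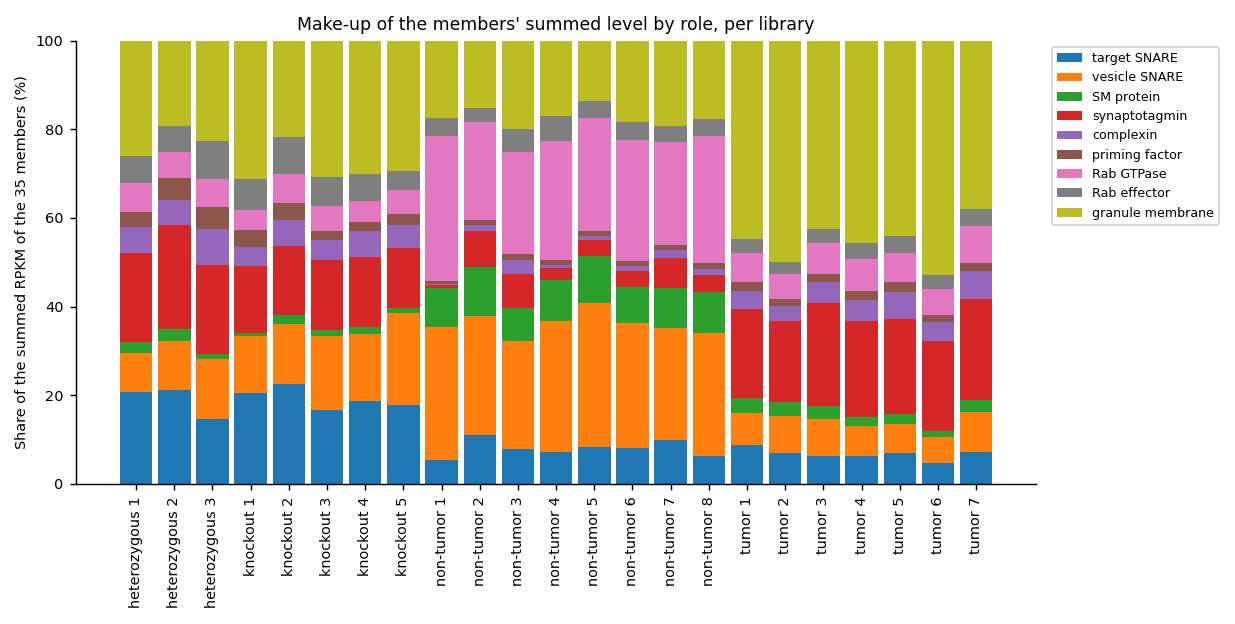
Share of the summed RPKM of the 35 genes held by each role in each of the 23 libraries, in percent. Granule membrane genes, led by Ptprn and Ptprn2, take 38.0% to 52.9% in tumors and 13.6% to 19.9% in non-tumor tissue, where Rab GTPases and vesicle SNAREs take most of the rest.

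A further 105 genes of exocytosis, among them other syntaxins, Munc18 proteins, the exocyst, synaptogyrins and SCAMPs, were counted beside the members. Of the 61 that were tested, 53 reached 1 RPKM in at least 1 non-tumor library. Relative to the median gene 21 of the 53 were higher in tumors and 13 lower, beside 27.5% and 37.9% of all genes that met this condition, with a median of 0.16. The 18 members under the same condition gave 12 and 3 with a median of 1.08. The 12 include Ptprn, Cplx2, Syt7 and Syt11, which passed the filter only with the help of tumors. The difference between the lists was not tested. On the deposited scale 48 of the 53 (90.6%) were higher, near the 89.2% of all genes, and 1 was lower, with a median of 1.70 against 1.44. The 3 largest rises were Rundc3a, from 0.876 to 60.4 RPKM (3.55 ± 0.22 relative to the median gene), Zwint, known chiefly as a kinetochore protein, from 2.85 to 84.4 RPKM (2.92 ± 0.22), and Rimbp2, which links RIM proteins to calcium channels, from 0.552 to 29.6 RPKM (2.74 ± 0.16). Rundc3a and Rimbp2, with non-tumor means below 1 RPKM, passed the filter only with the help of tumors, which favored a rise. Rab26, a Rab of exocrine secretory granules, was the 1 gene lower on the deposited scale, from 4.48 to 0.819 RPKM (-1.68 ± 0.19, or -3.22 ± 0.21 relative to the median gene). Stxbp6 (amisyn), which binds syntaxin, and the synaptophysin relative Sypl were the next lowest relative to the median gene, at -1.93 ± 0.22 and -1.70 ± 0.16, and neither was called on the deposited scale. In alpha cells 64 of the 105 were tested, limma called none, as against 0.261% of all tested genes in either direction, and their median change was -0.18. With array weights 1 of the 64 was called higher and 1 lower, where 0.476% and 0.364% of all tested genes were.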

How the data were processed

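Bulk RNA-seq of 23 libraries was used. RNA came from the RNeasy kit and libraries from the TruSeq RNA kit, per the labels' protocols; per the submitters' processing notes CASAVA 1.8, GSNAP and GRCm38 were named, without their roles, while annotation and counter are not given there. The values the authors deposited, in 2 tables, were read as RPKM from their values since the file headers name no unit; how libraries were scaled is not stated. The alpha cell table keeps no depth. For tissue, 16271 of 16422 genes had values in whole steps of 1 read, from which the members' reads were taken.

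Each table was fitted whole with limma 3.58.1 (trend, R 4.3.3) on log2(RPKM + 1), for genes with 1 RPKM or more in at least 3 (alpha cells) or 7 (tissue) libraries; fold changes on this scale understate those of low genes. Ratios were tested in Python 3.11.15 with scipy 1.17.1. The fits and the read steps were tested on simulated data. Alternatives covered pseudocounts, filters, normalisation, library weights, covariates, the replicate block and each library left out. All 35 members are named; of the further exocytosis genes, the 3 largest called rises and falls. The members and lists were chosen with earlier results of these data known. Gene positions and names follow GENCODE M21 and RefSeq.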

Additional observations from a re-analysis of the deposited data

Results flagged for a closer look

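Within groups of 4 to 10 libraries, 19 of 105 gene and group combinations had a highest or lowest library farther from its neighbour than Dixon's 95% limit allows, where chance gives about 1 in 20. Knockout alpha cell library 2 was the highest in 8 of them, at 46.4 RPKM for Snap23, 39.2 for Stx4a, 69.5 for Syt13, 38.0 for Rab3a, 10.7 for Rims2, 4.86 for Cadps2, 94.5 for Ptprn2 and 29.3 for Rph3al. The same library had the highest sum of values of the 8 alpha cell libraries, at 658255 RPKM. Knockout library 1 was the lowest for Syt5, at 2.95 RPKM, and knockout library 4 was the 1 alpha cell library with Cplx1 above 0, at 0.061 RPKM.

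Non-tumor library 2 was the highest in 6 combinations, at 12.0 RPKM for Stxbp2, 3.86 for Vamp2, 0.207 for Syt1, 1.93 for Syt11, 1.14 for Rab3b and 6.69 for Rab27a. In that library the 6 leukocyte markers, led by Ptprc and Cd68, summed to 182 RPKM, against 3.55 to 55.9 RPKM in the other 7, and whether they bear on these values was not tested. Non-tumor library 3 held Cplx1 at 0.153 RPKM, where the other 7 were at 0, and non-tumor library 7 held Slc18a1 at 0.596 RPKM. Tumor 4 held Sytl4 at 2.26 RPKM and the highest sum of beta cell markers among tumors.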

How the results depend on the processing

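The knockout and heterozygous alpha cells gave 0 called members in every setting tried. Between tumors and non-tumor tissue, 27 members were called on the deposited scale and 24 relative to the median gene, and a mean of at least 5 RPKM, which left 18 members to test, gave 17 and 15. Quantile normalisation gave 21 higher and 4 lower, where it called 32.6% of all tested genes higher and 29.8% lower. Leaving out 1 library gave 27 to 28 and 23 to 26 calls, and 9 of 18 ratios in every case. The replicate numbers did not pair the libraries, with correlations of deviations of 0.001, 0.015 and 0.087 in alpha cells and -0.222 to 0.149 in tissue, and the replicate block gave 0 calls in alpha cells, 27 on the deposited scale and 23 relative to the median gene, where Rab3a was lost. No block applies to the ratios.

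Signs turned for uncalled alpha cell values, and the cause was not tested. Sv2a was 0.0144 and 0.0297 with pseudocounts of 0.1 and 0.01. Array weights gave 0.0035 for Rab3d, 0.0063 for Snap25, 0.86 for Stx1a and -0.40 for Unc13a. The replicate block gave 0.0239 for Ptprn2, -0.0154 for Syt11, 0.18 for Cadps2, 0.0411 for Syt7 and 0.13 for Sv2a, and median centring 0.0107 for Cadps2. A term for genes detected gave 0.039 for Ptprn2, 0.0819 for Snap25 and 0.18 for Cadps2, and a term for acinar level -0.65 for Snap23, -0.29 for Syp, -0.11 for Vamp2, -0.75 for Syt11 and 0.35 for Cadps2. Without 1 library the ranges were -0.24 to 0.20 for Ptprn2, -0.28 to 0.0462 for Snap25, -1.12 to 0.78 for Stx1a, -0.25 to 0.36 for Unc13a, -0.57 to 0.27 for Sv2a, -0.0047 to 0.60 for Syp, -0.30 to 0.48 for Syt11, -0.36 to 0.35 for Cadps2, -0.21 to 0.38 for Stx4a, -0.10 to 0.50 for Vamp2 and -0.10 to 0.97 for Snap23, and for ratios -1.47 to 0.73 for Stx1a/Stx4a, -2.54 to 0.21 for Vamp2/Vamp8 and -0.31 to 0.38 for Rab27a/Rab27b.

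In tissue, quantile normalisation gave -0.22 for Snap23, -0.32 for Stxbp2 and -1.11 for Vamp8 in place of rises. Rab3d was 0.0814 with array weights and -0.11 to 0.11 without 1 library. Relative to the median gene, Stx4a was -0.0513 and -0.0909 with pseudocounts of 0.1 and 0.01, Snap23 and Stxbp2 were 0.21 and 0.17 without a filter, and Slc18a1 was -0.0123 with array weights. Depth in reads limits the lowest members, Cplx1 and Slc18a2 above all.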
